A study of Mus musculus with 12 samples.

Results

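The genes described here are 9 caspases and BCL2 family genes, the core of the machinery that starts programmed cell death. They are the initiator caspases Casp2, Casp8 and Casp9 with the Casp9 platform Apaf1, the anti-apoptotic proteins Bcl2l1 (BCL-XL) and Mcl1, the pore former Bax, and the BH3-only proteins Bcl2l11 (BIM) and Pmaip1 (NOXA). They were taken as a named list, by symbol, from the 51467 genes of the count table. All 9 were among the 14033 genes that passed a minimum of 3 CPM (read counts relative to the total of the library) in at least 3 libraries, and Casp8 passed it through its KO libraries.

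Libraries came from mouse embryonic stem cells (ESCs) grown with serum, LIF and the inhibitors PD0325901 and CHIR99021 (2i). Wild-type cells were of the V6.5 line, and cells labelled DGCR8 KO lacked Dgcr8, whose protein works with Drosha to cut microRNA hairpins out of their primary transcripts. Each genotype was 1 line, so line and genotype cannot be told apart. All cells took up 4-thiouridine (4sU), a uridine analogue, for 30 min at 500 uM, and the RNA of each was then split. Transcripts carrying 4sU were captured (4sU libraries, the measure of nascent RNA), and RNA depleted of rRNA gave the steady-state level (total libraries). Each of the 4 groups so formed held 3 replicates, which made 12 libraries. A 4sU and a total library of the same genotype and replicate number are called a culture below. The labels do not say that replicates were grown separately, so p-values measure the spread between these samples, which may be technical.

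Apoptosis in mammals is started along the mitochondrial or the death receptor route. BH3-only proteins such as BIM and NOXA bind anti-apoptotic proteins such as BCL-XL and MCL1, which frees BAX and its relatives to open the outer mitochondrial membrane. Cytochrome c then assembles with APAF1 into the apoptosome, which activates caspase 9, while caspase 8 is activated at death receptors and caspase 2 on a scaffold of PIDD1 and CRADD (the PIDDosome). ESCs are known to be primed for mitochondrial apoptosis. Many microRNAs of ESCs share the seed AAGUGC, and a microRNA pairs through its seed with matching letters in 3′ UTRs and lowers the stability or translation of the mRNA.

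Because the KO cells lack the microRNAs that need Dgcr8, the seeds of 4 microRNA families abundant in or known from ESCs were looked up, and the mature sequences that name them are shown first. Capitals mark the seed (bases 2 to 8), and the sequences are those of RefSeq (GRCm38.p6).
mmu-miR-294-3p: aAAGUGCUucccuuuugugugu
mmu-miR-302b-3p: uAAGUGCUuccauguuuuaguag
mmu-miR-17-5p: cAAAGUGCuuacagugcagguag
mmu-miR-92a-3p: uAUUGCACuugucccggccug
mmu-miR-19b-3p: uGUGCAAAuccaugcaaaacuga

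The first pair shares the AAGUGC seed, whose hexamer match in an mRNA reads GCACTT. That hexamer stood 4 times in the 3′ UTR of Casp2, more than in any other member, and these windows are shown with the match in capitals. They run 5′ to 3′ on the plus strand of mm10, at chr6:42281274-42281295, chr6:42281544-42281565, chr6:42281975-42281996 and chr6:42282066-42282087.
Casp2, 811 bases after the stop codon: tgtggcttctgcatGCACTTAc
Casp2, 1081 bases after the stop codon: tgatataacctagaAGCACTTg
Casp2, 1512 bases after the stop codon: tgcaggctgtaatgGCACTTTt
Casp2, 1603 bases after the stop codon: atatccagtaactgGCACTTAc

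The second of these windows holds the 7mer AGCACTT, the first and the last hold GCACTTA, and the remaining one holds GCACTTT, the match of the miR-17 family. The Bcl2l11 3′ UTR held the hexamer 3 times, each as AGCACTT and 2 of them also as GCACTTT. All are shown because Bcl2l11 was the other member whose stability estimate was above 0 by more than its standard error. That estimate had a limma adjusted p of 0.062, not under 0.05. The Bcl2l11 windows were thus chosen with its stability result known and are no support for it. They lie on the plus strand at chr2:128159566-128159587, chr2:128159763-128159784 and chr2:128160437-128160458.
Bcl2l11, 1251 bases after the stop codon: attatgccgagtaaAGCACTTg
Bcl2l11, 1448 bases after the stop codon: cagcctggtggaggAGCACTTt
Bcl2l11, 2122 bases after the stop codon: gtctccccgactggAGCACTTt

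Mcl1 (1819 bases after the stop, as AGCACTT) and Casp8 (38 bases after it, as GCACTTT) held the hexamer once each. It stood in none of the longest 3′ UTRs of Casp9, Apaf1, Bcl2l1, Bax or Pmaip1. Matches were sought on the sense strand of the longest 3′ UTR annotated for each gene, and 34.0% of 11809 tested genes with a 3′ UTR held GCACTT at least once, against 4 of the 9 members. The other motifs stood in these shares of genes. AGCACTT was found in 18% of genes and 3 members, and GCACTTA in 8.3% and 1 member. GCACTTT was found in 14.9% and 4 members. GTGCAAT, the match of the miR-25 and miR-92 family, was found in 7.6% and 3 members (Casp9, Mcl1 and Bcl2l11), and TTTGCAC, the match of the miR-19 family, in 13.7% and 2 members (Apaf1 and Bcl2l11). Another annotated 3′ UTR of Bcl2l1 also held TTTGCAC. Every 7mer above that ends in or begins with the hexamer is counted with it too, so these counts overlap. 3′ UTR lengths differed between members, from 224 bases in Bax to 4218 in Bcl2l11, and a match is a run of letters and not evidence that a microRNA binds there.

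**Figure D1:**
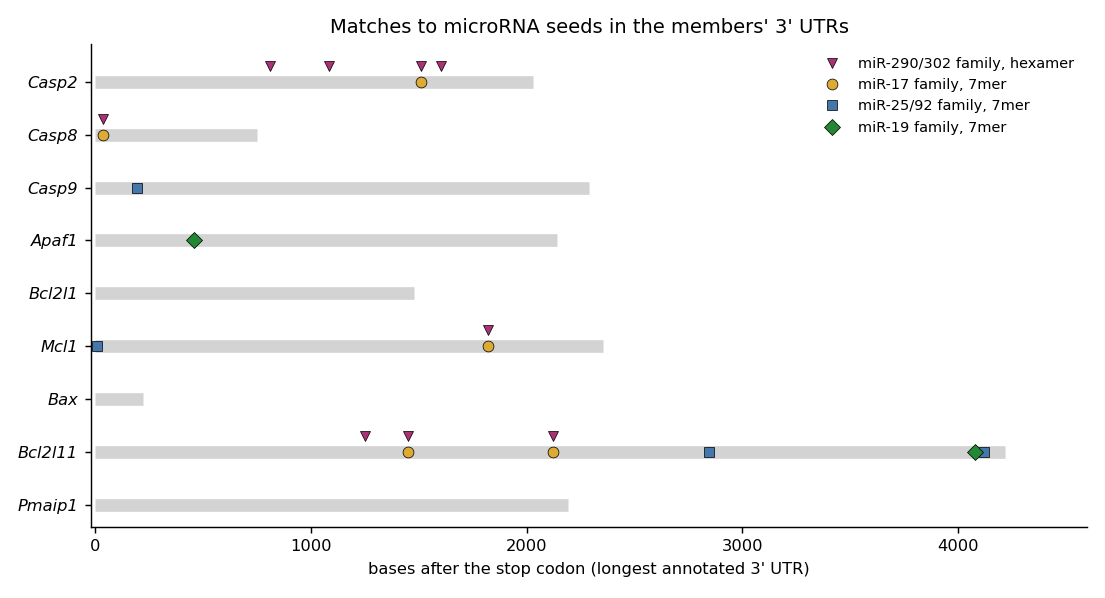
Positions of seed matches in the longest annotated 3′ UTR of each member, in bases after the stop codon (x axis), with grey bars for the length of the 3′ UTR and a symbol for each microRNA family. Casp2 holds 4 matches to the hexamer of the miR-290 and miR-302 family, whose seed is AAGUGC (triangles), and Bcl2l11 holds 3, while Bcl2l1, Bax and Pmaip1 show no match to the families searched.

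Dgcr8 was checked first. Its total RNA was 101.2, 111.1 and 92.5 CPM in the wild-type and 33.6, 34.1 and 32.04 CPM in the KO libraries, or a log2 change of -1.60 (limma adjusted p = 6.63e-17). Library depth ranged from 4593914 to 6005526 counts for 4sU and from 6873708 to 9295245 for total libraries. The 6 ESC marker genes (Pou5f1, Sox2, Nanog, Esrrb, Zfp42, Sall4) were present in every group, with summed levels of 3438 to 3585 CPM in total libraries of both genotypes. At a limma adjusted p under 0.05, 3 of them were higher and 3 lower in KO total RNA, so the sum hides opposite changes. Of all genes 63.9% passed by that rule. In 4sU libraries the 6 markers summed to 4310 to 4476 CPM in wild-type and 5028 to 5478 CPM in KO cells. Of 5 fibroblast markers, Postn had no count in any library, and the list summed to at most 3.77 CPM. Primitive endoderm markers summed to at most 17.2 CPM. Trophoblast markers summed to 61.9 to 74.9 CPM in wild-type and 42.4 to 45.9 CPM in KO total libraries, and their part in the results below was not tested.

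The members were expressed over a wide range. In wild-type total RNA the levels per kilobase of exon, in CPM per kb, were 169 ± 4.05 for Mcl1 and 153 ± 12.2 for Bax (SD, n = 3 for each), whose libraries overlapped. Pmaip1 followed at 18.9 ± 3.15 and Apaf1 at 18.2 ± 0.924 CPM per kb, again with overlap, and Casp2 at 14.2 ± 0.818. Casp9 (8.55 ± 1.11) and Bcl2l1 (6.84 ± 1.55) overlapped, and Bcl2l11 (3.08 ± 0.468) and Casp8 (1.1 ± 0.184 CPM per kb) came last. In KO total RNA Mcl1 (173 ± 1.56 CPM per kb) and Bax (127 ± 5.22) no longer overlapped. There Pmaip1 reached 84.6 ± 4.93 CPM per kb and Casp2, at 27.5 ± 1.5, lay above Apaf1 at 22.7 ± 0.54. Of the exon bases of Bax, 192 of 867 (22.1%) are shared with Gm45808 on the same strand, which had 0 counts in all libraries, so the level of Bax per kb may be understated. In bulk libraries, fewer cells that express a gene and less RNA per cell cannot be told apart.

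**Figure D2:**
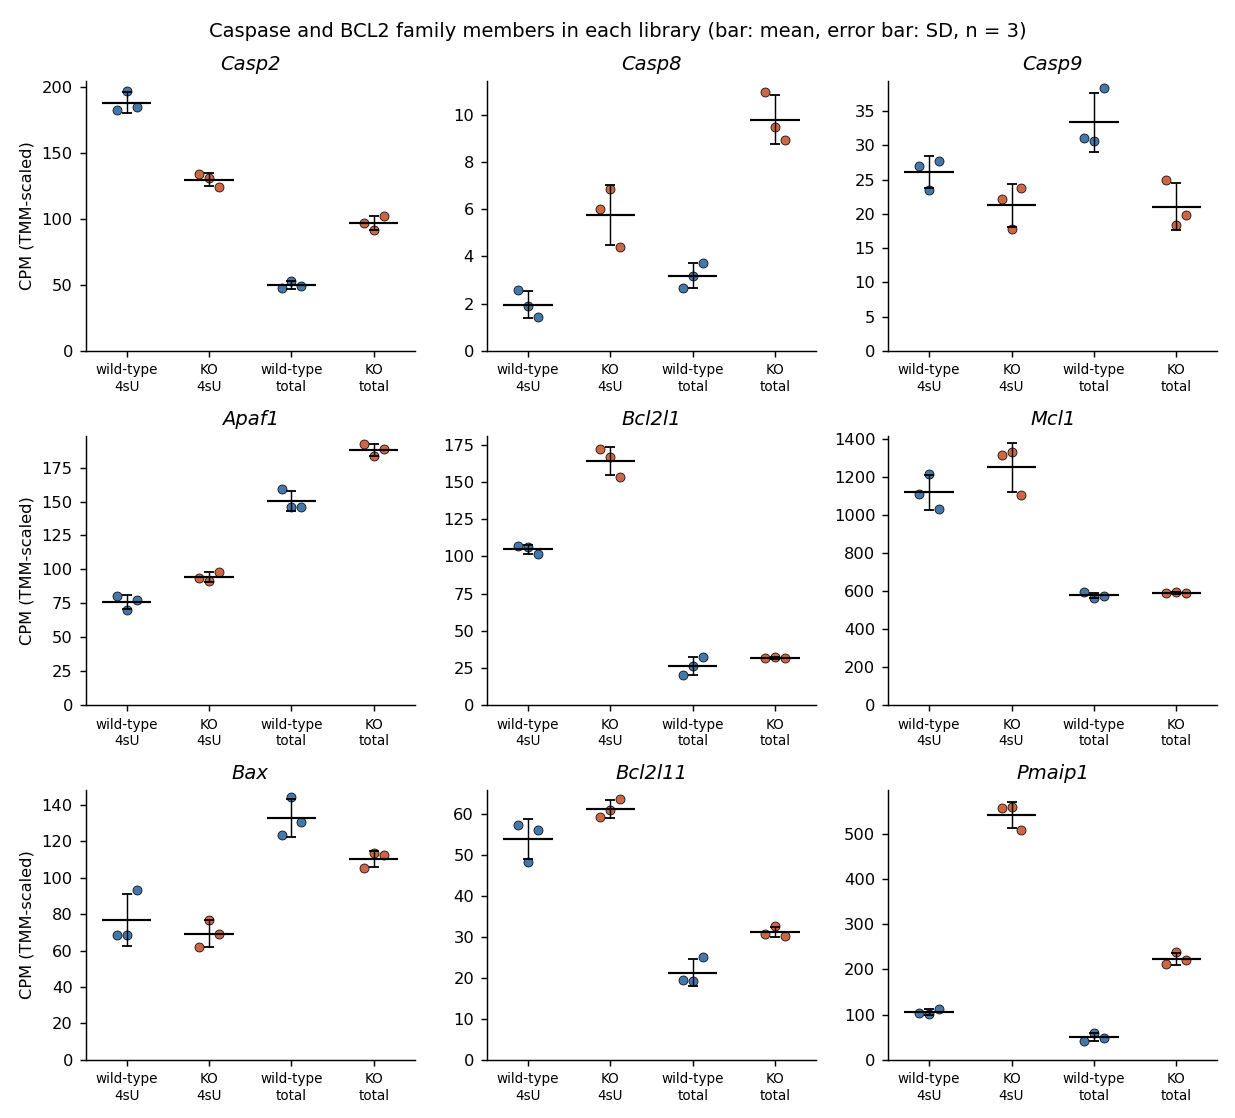
CPM, scaled by library size and TMM factor (y axis, linear, from 0), of each member in each of the 12 libraries, with 1 point per library, a bar at the group mean and an error bar for the SD (n = 3). In total libraries Pmaip1 lies between 212.7 and 238.2 CPM in KO and between 42.2 and 58.8 CPM in wild-type cells, and Casp2 is higher in KO total but lower in KO 4sU libraries.

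To separate changes in synthesis from changes in decay, 3 quantities were taken from a single fit over all genes and all 12 libraries: the KO minus wild-type change in total RNA, the same in nascent RNA, and their difference, the change in the total to 4sU ratio, here called stability. The stability change is built from the same libraries as the other quantities and is not separate evidence. A gene is said to have risen or fallen at a limma adjusted p (Benjamini-Hochberg over all 14033 genes) under 0.05, and is called when its log2 change also exceeds 1 in size.

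In total RNA 2 of the 9 members were called, Pmaip1 and Casp8, both higher, where 17.2% of all genes tested were called (9.33% higher and 7.82% lower). Without the limit on size 6 members rose (Pmaip1, Casp8, Casp2, Bcl2l11, Apaf1 and Bcl2l1), 2 fell (Casp9 and Bax) and Mcl1 did not pass the test. Among all genes 63.9% passed on that rule, of which 27.2% of all genes were higher and 36.7% lower. The median log2 change was 0.33 over the members and -0.09 over all genes. In nascent RNA Pmaip1 and Casp8 were again called, where 14.8% of all genes were (9.5% higher and 5.27% lower). On the adjusted p alone Bcl2l1, Apaf1 and Mcl1 rose as well and Casp2 fell, where 56.3% of all genes passed, with 28.3% higher and 28% lower. The median was 0.18 over the members and -0.02 over all genes. For stability 1 member, Casp2, was called, where 1.76% of all genes were (0.791% higher and 0.969% lower). Bcl2l1 fell on the adjusted p alone, and 7 members did not pass. On that rule 16.1% of all genes passed, 5.02% higher and 11.1% lower, and the median was -0.12 over the members and -0.09 over all genes.

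**Figure D3:**
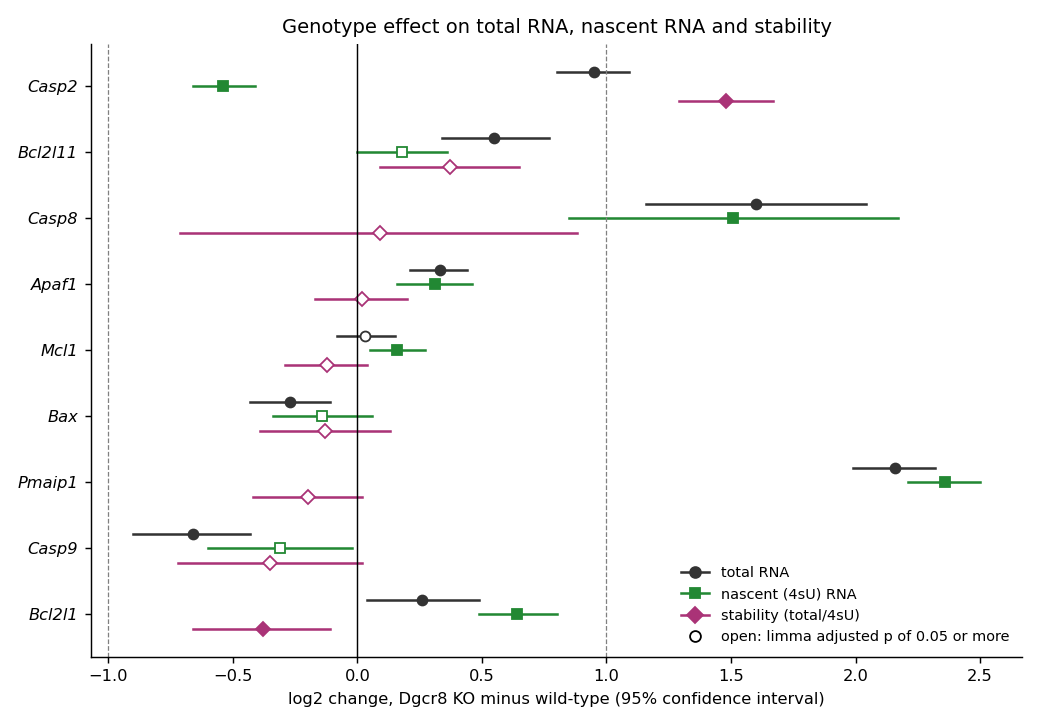
Log2 change, KO minus wild-type (x axis), of each member in total RNA (circles), nascent RNA (squares) and stability (diamonds), with 95% confidence intervals. Open symbols mark a limma adjusted p of 0.05 or more, and dashed lines mark a log2 change of 1 in either direction. Casp2 sits at -0.54 in nascent RNA and 1.48 in stability, while Pmaip1 sits above 2 in total and nascent RNA with a stability interval that includes 0.

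Casp2 (ENSMUSG00000029863.13, mm10 chromosome 6, 42264985 to 42282508, plus strand) encodes the caspase activated on the PIDDosome. In total RNA its level was 47.6, 53.3 and 49.5 CPM in wild-type and 97.0, 91.7 and 102.3 CPM in KO libraries. In 4sU RNA it was 183, 197 and 185 CPM in wild-type and 134, 131 and 124 CPM in KO libraries. The genotypes did not overlap in either library type, and the order turned over, with KO above wild-type in total RNA and below it in nascent RNA. Total RNA rose 1.93-fold, by 0.95 in log2 units (SE 0.07, limma adjusted p = 2.48e-13), just under the limit for a call. Nascent RNA fell by 0.54 (SE 0.0617, adjusted p = 9.04e-09). The stability change was 1.48 (95% interval 1.29 to 1.67, limma adjusted p = 4.7e-13), a 2.79-fold higher ratio of total to 4sU RNA in KO cells.

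Leaving out any single culture left the stability change of Casp2 between 1.41 and 1.52. It ranked 81 of 14033 genes by its stability change. For all tested genes with a 3′ UTR the median stability change was -0.14 over 7798 genes with no GCACTT, -0.05 over 2619 genes with 1 match, 0.04 over 884 with 2, 0.10 over 316 with 3, and 0.22 over 192 with at least 4. Casp2 ranked 8 of those 192 genes. Of the members with 1 match, Casp8 ranked 881 and Mcl1 1611 of the 2619 genes. Of those with no match, Apaf1 ranked 2188, Bax 3825, Pmaip1 4565, Casp9 5877 and Bcl2l1 6065 of the 7798 genes. Quartiles ran from -0.35 to 0.05 over the genes with no match and from -0.08 to 0.53 over those with at least 4. Casp2, at 1.48, lay far above both ranges. These medians and quartiles describe the genes, take no account of 3′ UTR length and were not tested here. The windows shown above are those that put Casp2 among the 192 genes, and whether they bear on its stability was not tested.

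Bcl2l11 (ENSMUSG00000027381.16, chromosome 2, 128126038 to 128162547, plus strand) encodes BIM, a BH3-only protein that binds all the main anti-apoptotic BCL2 proteins. Total RNA was 19.5, 19.3 and 24.98 CPM in wild-type and 30.7, 32.7 and 30.2 CPM in KO libraries, without overlap. In 4sU RNA it was 57.4, 48.3 and 56.0 CPM in wild-type and 59.2, 61.0 and 63.6 CPM in KO libraries, close together but also without overlap. Total RNA rose by 0.55 (SE 0.105, limma adjusted p = 3.04e-05), and the nascent change was 0.18 (adjusted p = 0.082). The stability change was 0.37 (95% interval 0.09 to 0.65, adjusted p = 0.062) and missed the threshold. It passed with the culture (the shared replicate number) as a block (0.361, limma adjusted p = 0.0371) and in 8 of 15 alternatives in all, with adjusted p from 0.0183 to 0.292. Bcl2l11 ranked 80 of the 316 genes with 3 GCACTT matches by its stability change.

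Pmaip1 (ENSMUSG00000024521.7, chromosome 18, 66458604 to 66465550, plus strand) encodes NOXA, a BH3-only protein that binds MCL1 and is a known p53 target. Its total RNA was 42.2, 58.8 and 49.3 CPM in wild-type and 212.7, 238.2 and 221.0 CPM in KO libraries. Its 4sU RNA was 103.4, 100.8 and 112.8 CPM in wild-type and 557.2, 561.2 and 509.4 CPM in KO libraries. Every KO library lay far above every wild-type library in both types. Total RNA rose 4.46-fold (log2 change 2.16, SE 0.0805, limma adjusted p = 9.68e-21) and nascent RNA 5.13-fold (log2 change 2.36, SE 0.0717, adjusted p = 2.01e-22). The stability change was -0.20 (95% interval -0.42 to 0.02, adjusted p = 0.226), so the total to 4sU ratio did not measurably differ between genotypes.

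Casp8 (ENSMUSG00000026029.14, chromosome 1, 58795374 to 58847503, plus strand), the initiator caspase of death receptors, was the least abundant member. It had 8 to 16 counts in wild-type 4sU and 23 to 36 in KO 4sU libraries, and 17 to 32 counts in wild-type total and 62 to 97 in KO total libraries. In CPM its total RNA was 2.65, 3.17 and 3.72 in wild-type and 10.9, 9.47 and 8.95 in KO libraries. Neither library type overlapped between genotypes. Total RNA rose 3.03-fold (log2 change 1.60, SE 0.217, limma adjusted p = 1.14e-07) and nascent RNA 2.85-fold (log2 change 1.51, SE 0.324, adjusted p = 0.000197). At this depth the stability change of 0.09 had a 95% interval from -0.71 to 0.88, so a change in stability as large as that of Bcl2l11 or Bcl2l1 was not detectable.

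Apaf1 (ENSMUSG00000019979.12, chromosome 10, 90989311 to 91082770, minus strand), the scaffold of the apoptosome, was 159.2, 145.8 and 146.2 CPM in wild-type and 192.2, 183.3 and 188.6 CPM in KO total libraries. In 4sU libraries it was 80.6, 70.3 and 77.2 CPM in wild-type and 93.6, 91.6 and 98.2 CPM in KO cells. All KO libraries lay above all wild-type libraries in both types. Total RNA rose by 0.33 (SE 0.0555, limma adjusted p = 5.51e-06) and nascent RNA by 0.31 (SE 0.0725, adjusted p = 0.000548). The stability change of 0.02 had the interval -0.17 to 0.20.

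Casp9 (ENSMUSG00000028914.13, chromosome 4, 141793612 to 141815976, plus strand), the caspase that APAF1 activates, moved the other way. Its total RNA was 31.1, 30.6 and 38.3 CPM in wild-type and 24.9, 18.4 and 19.8 CPM in KO libraries. Its 4sU RNA was 27.0, 23.4 and 27.8 CPM in wild-type and 22.2, 17.7 and 23.8 CPM in KO libraries. Genotypes were apart in total RNA and overlapped in 4sU RNA. Total RNA fell by 0.66 (SE 0.116, limma adjusted p = 8.38e-06). Neither the nascent change (-0.31, adjusted p = 0.0622) nor the stability change (-0.35, 95% interval -0.72 to 0.02, adjusted p = 0.207) passed, so the fall could not be assigned to synthesis or decay. Leaving out wild-type replicate 2 moved the nascent change past the threshold (-0.381, limma adjusted p = 0.0342).

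Bcl2l1 (ENSMUSG00000007659.18, chromosome 2, 152780668 to 152831728, minus strand) encodes BCL-XL. Its 4sU RNA was 106.8, 106.2 and 101.4 CPM in wild-type and 172.1, 166.5 and 153.4 CPM in KO libraries, without overlap. Its total RNA was 20.6, 26.5 and 32.7 CPM in wild-type and 31.7, 32.4 and 31.5 CPM in KO libraries, and the highest wild-type library lay above all KO libraries. Nascent RNA rose by 0.64 (SE 0.0758, limma adjusted p = 1.39e-08), and total RNA rose by 0.26 (SE 0.11, adjusted p = 0.0396). The stability change was -0.38 (95% interval -0.66 to -0.11, adjusted p = 0.047).

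The total and stability results for Bcl2l1 lay close to the threshold, unlike its nascent rise. Without wild-type replicate 1 the total change was 0.106 (limma adjusted p = 0.405), and without wild-type replicate 2, KO replicate 1 or KO replicate 2 its adjusted p was 0.101, 0.0712 and 0.0936. Without wild-type replicate 3 the stability change was -0.194 (adjusted p = 0.39), and without wild-type replicate 2, KO replicate 1 or KO replicate 2 its adjusted p was 0.0882, 0.148 and 0.108. It also missed the threshold with DESeq2 (-0.31, adjusted p = 0.155), RLE factors (-0.295, limma adjusted p = 0.157) and upper-quartile factors (-0.318, adjusted p = 0.116). The same held with library size only (limma adjusted p = 0.0638) and without the filter (0.222), and it passed in 6 of 15 alternatives. The nascent change stayed between 0.61 and 0.71 when any culture was left out.

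Mcl1 (ENSMUSG00000038612.16, chromosome 3, 95658788 to 95663176, plus strand), the anti-apoptotic partner of NOXA, was the most abundant member. Its total RNA was 593.7, 566.4 and 576.4 CPM in wild-type and 588.5, 598.5 and 590.3 CPM in KO libraries. Its 4sU RNA was 1112, 1217 and 1035 CPM in wild-type and 1315, 1334 and 1104 CPM in KO libraries. Genotypes overlapped in both types. The total change was 0.03 (95% interval -0.08 to 0.15, limma adjusted p = 0.619). Nascent RNA rose by 0.16 (SE 0.055, adjusted p = 0.0152), and the test was no longer passed in 7 of 14 alternatives. These were DESeq2 (0.101, adjusted p = 0.235), RLE factors (0.100, limma adjusted p = 0.147) and upper-quartile factors (0.108, adjusted p = 0.101). The others were the fits without wild-type replicate 1 or 3 or KO replicate 1 or 2, at limma adjusted p of 0.0649, 0.147, 0.0845 and 0.129. The stability change was -0.12 (95% interval -0.29 to 0.04), and it passed only without KO replicate 3 (-0.215, limma adjusted p = 0.0442).

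Bax (ENSMUSG00000003873.11, chromosome 7, 45461697 to 45466898, minus strand), which opens the mitochondrial outer membrane, was 123.5, 144.2 and 130.5 CPM in wild-type and 105.2, 113.5 and 112.4 CPM in KO total libraries. In 4sU libraries it was 68.8, 68.6 and 93.2 CPM in wild-type and 62.0, 76.9 and 69.3 CPM in KO cells. Only the total libraries were apart. Total RNA fell by 0.27 (SE 0.0775, limma adjusted p = 0.00304). The nascent change was -0.14 (adjusted p = 0.237) and was 0.0045 without wild-type replicate 3, whose 4sU value was the highest. The stability change was -0.13 (95% interval -0.39 to 0.13, adjusted p = 0.542).

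The ratio of total to 4sU RNA was also compared between the members within each genotype. For each culture the log2 ratio was taken relative to the median of all tested genes, as a description without a test. In wild-type cells Bcl2l1 (-2.09 ± 0.37) and Casp2 (-2.0 ± 0.02) were lowest (SD, n = 3 for each), at percentiles 13.5 and 14.2 of all tested genes, and their cultures overlapped. Bcl2l11 (-1.44 ± 0.19), Pmaip1 (-1.18 ± 0.26) and Mcl1 (-1.04 ± 0.15) also lay below the median gene. Casp9 (0.26 ± 0.13), Casp8 (0.60 ± 0.64), Bax (0.71 ± 0.29) and Apaf1 (0.89 ± 0.06) lay above it. In KO cells Casp9 lay at the median gene (-0.01 ± 0.21, SD, n = 3). Its side and that of Casp2 in KO cells depend on the filter, since without it they were 0.577 and 0.171.

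The position of Casp2 shifted most. Its relative ratio was -2.02, -1.99 and -1.99 in the wild-type and -0.47, -0.51 and -0.26 in the KO cultures, a move from percentile 14.2 to percentile 38.7 of tested genes. Bcl2l11 went from -1.63, -1.43 and -1.25 to -0.95, -0.90 and -1.06, or from percentile 20.2 to 27.6. For these genes and Apaf1 (0.89 ± 0.06 and 1.00 ± 0.04, SD, n = 3) the genotypes did not overlap on this scale. The remaining 6 members overlapped. The share of all tested genes without overlap was not computed, so this division of the members has no background here. Values on this scale also move when the median gene moves. In the fit the stability change of Apaf1 was 0.02 (limma adjusted p = 0.93), and the median over all genes was -0.09. The separation of Apaf1 on this scale is therefore not read as a change in its stability.

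**Figure D4:**
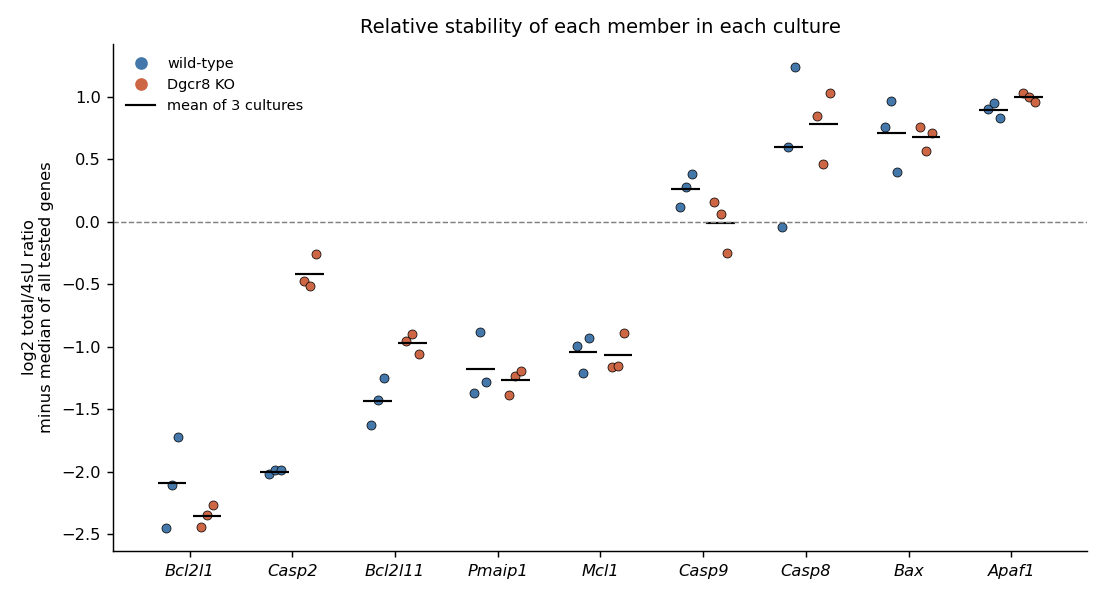
Log2 ratio of total to 4sU CPM of each member minus the median over all tested genes (y axis), 1 point per culture, wild-type in blue and KO in orange, with a line at the mean of 3 cultures. Members are ordered by their wild-type mean. Casp2 moves from a mean of -2.0 to -0.42, while Bcl2l1, Pmaip1 and Mcl1 stay low in both genotypes.

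The rest of the pathway was taken from a list of 49 other apoptosis genes, of which 38 were tested. In total RNA 3 of the 38 were called, all lower (Casp6, Hrk and Bcl2l14), a share of 7.89% against 17.2% of all genes. On the adjusted p alone 12 rose and 18 fell, where 27.2% of all genes were higher and 36.7% lower, and the median log2 change was -0.22. Hrk passed the minimum level through its wild-type 4sU libraries and Casp6 through its wild-type libraries, the groups where they are high. In nascent RNA 3 were called higher (Cflar, Bok and Birc3) and 3 lower (Casp6, Hrk and Bcl2l14), together 15.8% against 14.8% of all genes. On the adjusted p alone 14 rose and 13 fell, against 28.3% and 28% of all genes, with a median of -0.00. For stability 1 was called (2.63% against 1.76% of all genes), Bbc3, which was lower. On the adjusted p alone 8 fell and 0 rose in limma, 9 and 0 in edgeR, and 4 and 0 in DESeq2, where 11.1% of all genes fell and 5.02% rose in limma. At an unadjusted p under 0.05 the limma counts were 10 and 1. Shares of all genes by that rule, in edgeR and in DESeq2 were not computed, so those counts have no background here. The median was -0.13 against -0.09 for all genes.

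Among BH3-only genes, Bbc3 (ENSMUSG00000002083.13, chromosome 7, 16309616 to 16318205, plus strand), which encodes PUMA and like Pmaip1 is a known p53 target, had opposite directions in the 2 library types. Its 4sU RNA was 43.4, 32.8 and 48.2 CPM in wild-type and 70.0, 55.9 and 61.1 CPM in KO libraries, and its total RNA was 28.1, 24.0 and 32.2 CPM in wild-type and 16.2, 17.1 and 16.02 CPM in KO libraries. The genotypes were apart in both. Nascent RNA rose by 0.58 (SE 0.11, limma adjusted p = 4.29e-05), total RNA fell by 0.76 (SE 0.135, adjusted p = 1.1e-05) and stability fell by 1.34 (SE 0.175, adjusted p = 1.3e-06), with signs opposite to those of Casp2 in all 3 quantities. Pmaip1, beside it, rose in both library types. Hrk, a BH3-only gene known from neurons, had 19 to 30 counts in wild-type and 0 to 3 in KO 4sU libraries, and 8 to 14 and 0 to 2 counts in the total libraries. Against a floor of 3 counts per library it was at least 7.11-fold lower in nascent and at least 3.95-fold lower in total RNA.

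Among the relatives of the pore former Bax, Bok rose in nascent RNA by 1.26 (SE 0.122, limma adjusted p = 2.29e-10) and in total RNA by 0.37 (SE 0.111, adjusted p = 0.00452), and its stability fell by 0.89 (SE 0.165, adjusted p = 0.00021). Without KO replicate 2 the total change of Bok was 0.278 (limma adjusted p = 0.0536). Bak1, named after its values were seen, had the same pattern, with changes of 0.88 in nascent RNA, 0.51 in total RNA and -0.37 in stability (limma adjusted p = 0.00985 for the last). Thus Bok and Bak1 rose in both library types, while Bax fell in total RNA. Bcl2l14, a more distant BCL2 relative, fell by 2.11 in total RNA (SE 0.183, limma adjusted p = 9.89e-12) and by 1.49 in nascent RNA (SE 0.226, adjusted p = 1.51e-06).

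Among caspases and their regulators, the executioner Casp6 fell by 1.22 in total RNA (SE 0.233, limma adjusted p = 3.2e-05) and by 1.18 in nascent RNA (SE 0.347, adjusted p = 0.00466), at 7 to 61 counts per library. Cflar (cFLIP), the inhibitor of caspase 8, rose with Casp8, by 1.38 in nascent RNA (SE 0.207, limma adjusted p = 1.14e-06) and by 0.79 in total RNA (SE 0.215, adjusted p = 0.00188). Birc3 (cIAP2), an inhibitor of apoptosis protein, rose by 1.21 in nascent RNA (SE 0.154, adjusted p = 6.36e-08) and by 0.83 in total RNA (SE 0.131, adjusted p = 1.58e-06). The PIDDosome partners of Casp2, named after their values were seen, fell in total RNA, Pidd1 by 0.39 (limma adjusted p = 0.00116) and Cradd by 0.90 (adjusted p = 6.02e-05), where Casp2 rose. In nascent RNA they fell as Casp2 did, Pidd1 by 0.70 (limma adjusted p = 1.66e-07) and Cradd by 0.57 (adjusted p = 0.0075).

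**Figure D5:**
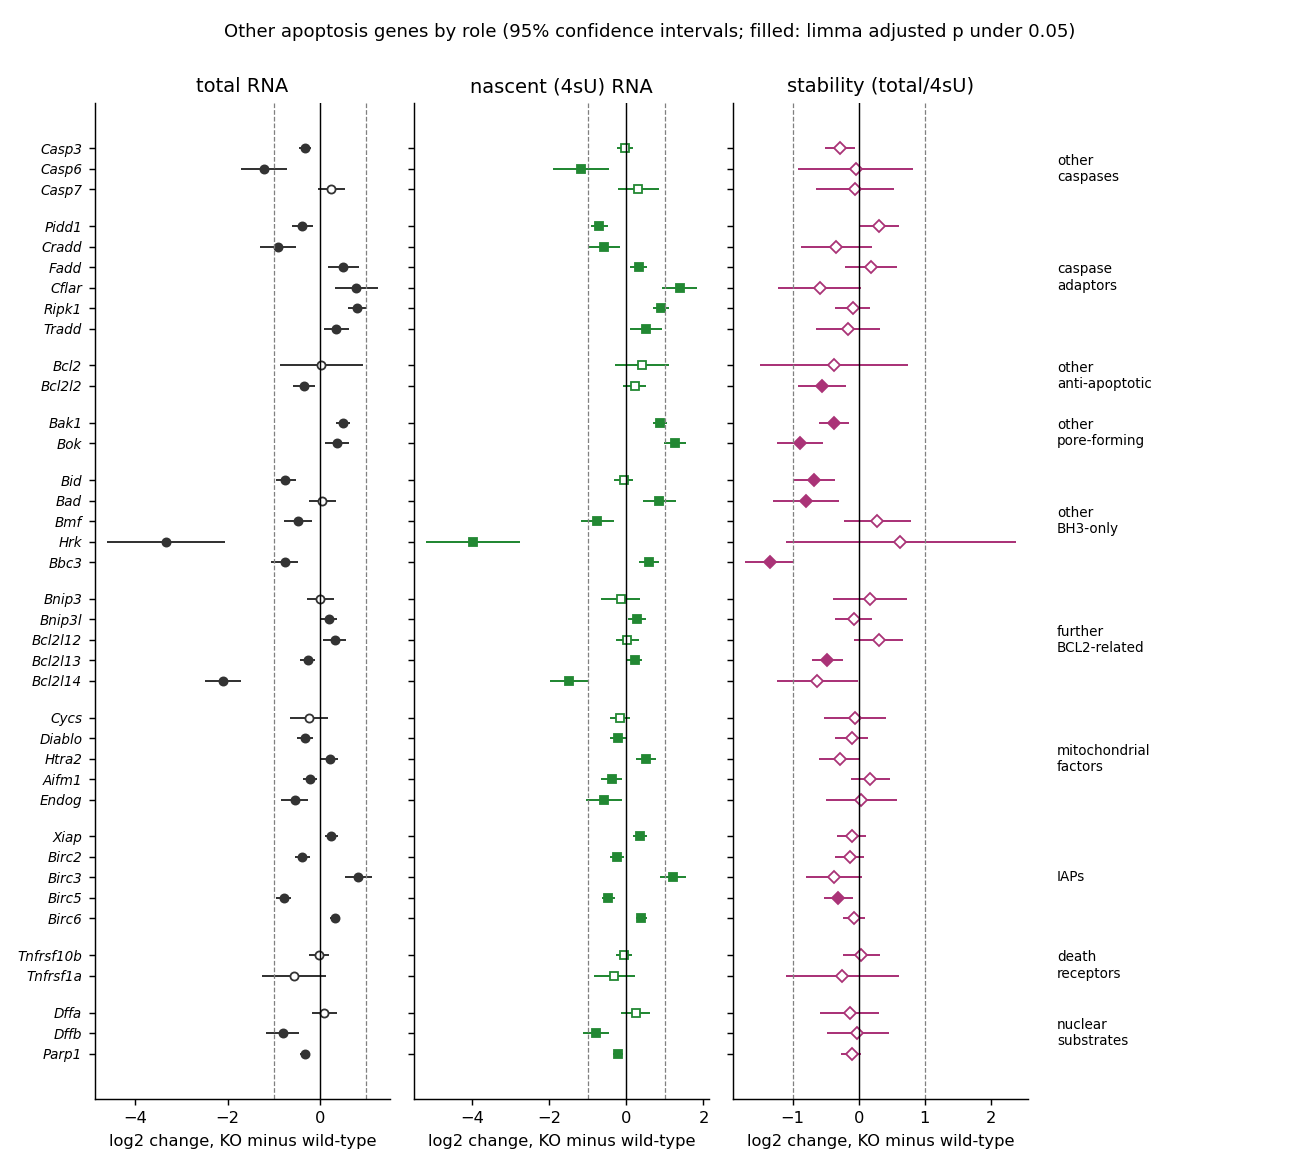
Log2 change, KO minus wild-type (x axes, a different range in each panel), of the 38 tested apoptosis genes that are not members, in total RNA, nascent RNA and stability, grouped by role, with 95% confidence intervals. Filled symbols mark a limma adjusted p under 0.05 and dashed lines a log2 change of 1 in size. In the stability panel all 8 filled symbols lie below 0, with Bbc3 at -1.34.

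The tested genes whose log2 CPM followed Casp2 most closely over the 12 libraries were Zfp367 (Pearson r = 0.991), 4933434E20Rik (0.989), Mir17hg (0.978), Zbtb41 (0.973) and Mir15a (0.968). These values describe likeness over 4 groups of 3 libraries that share their cultures and depth, so no test is given.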

How the data were processed

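The authors deposited raw gene-level read counts (whole numbers), with a Length column in another unit (exon bases per gene), for 12 libraries of 50-base single-end reads. Per the submitters' processing notes and the file header, adapters were trimmed with cutadapt 1.14, reads were mapped uniquely to mm10 with STAR 2.5.3a, and reverse-stranded counts were made with featureCounts 1.5.3, so opposite-strand genes were counted apart and near-identical copies are under-counted. The methods of the study name GENCODE annotation without rRNA genes. All 12 count columns were used (0 left out). No molecular identifiers were used, so floors cover counting error only.

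Of 51559 identifiers 51274 matched a symbol in GENCODE M21, and 92 rows of ERCC spike-ins, with 1 count in all, were left out. As in the study, genes needed at least 3 CPM in at least 3 libraries and a limma model with an interaction was fitted. Chosen here were TMM factors (edgeR 4.0.16), voom weights, limma 3.58.1 under R 4.3.3, 1 model with terms for library type and genotype and an interaction term over all 12 libraries, and Benjamini-Hochberg adjustment over 14033 genes. Scripts were tested on simulated data. 3′ UTRs were the longest of GENCODE M21 on the same build. Lengths in CPM per kb are the exon lengths of the deposited table.

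The members, the pathway and marker lists and the alternatives were chosen with earlier results of these data known. Named genes were the 9 members, Dgcr8, pathway genes called in a contrast together with the 2 largest changes per contrast, the 5 genes most like Casp2, and marker genes, and others are said to be named after their values were seen. Alternatives were edgeR's quasi-likelihood test, DESeq2 1.42.0, changed scaling factors, low-count filters, calls at any size of change, replicate blocks and leaving out each culture. Same-numbered libraries of the 2 genotypes deviated together with correlations from -0.0699 to 0.0699, and the 4sU and total libraries of a culture, which the protocol divides from 1 extract, with 0.011 to 0.0783.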

Additional observations from a re-analysis of the deposited data

Results flagged for a closer look

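For 4 genes among the members and the called pathway genes, KO and wild-type differed by unequal amounts in total and nascent RNA, by the interaction term of the fit (limma adjusted p under 0.05). The difference, total minus nascent, was 1.48 on the log2 scale for Casp2, -0.38 for Bcl2l1, -0.89 for Bok and -1.34 for Bbc3. Dgcr8 (-1.09) and Bak1 (-0.37), which belong to neither set, passed the same test. So did the pathway genes Bad (-0.80), Bid (-0.68), Bcl2l2 (-0.56), Bcl2l13 (-0.48) and Birc5 (-0.31), named after their values were seen. By that rule 16.1% of all genes passed, beside 2 of the 9 members and 8 of the 38 other pathway genes tested. Casp2 and Bbc3 moved in opposite directions in the 2 library types, and Bcl2l1 and Bok rose in both, less in total RNA. The value of Bcl2l1 lay near the threshold (adjusted p = 0.047) and lost it in 9 of 15 alternatives. With 3 libraries in each group, no library was tested for standing apart from its group.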

How the results depend on the processing

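The same 2 members were called in total and nascent RNA, and Casp2 in stability, under edgeR, DESeq2 and every scaling, block and left-out culture, except that requiring 3 CPM in all 12 libraries removed Casp8 and left 1 in total and 1 in nascent RNA. Without the limit on the log2 change 8, 6 and 2 members passed in total RNA, nascent RNA and stability, and 30, 27 and 8 of the other pathway genes. Of all genes 63.9%, 56.3% and 16.1% passed by that rule. Pathway calls in total RNA were 1 with 3 CPM in all libraries, and 2 to 4, 4 to 7 and 1 to 2 for total RNA, nascent RNA and stability when a culture was left out. Those pathway alternatives were added after the data were seen.

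Of 384 values for the members 343 kept their direction and side of the threshold, 21 lost it, 15 gained it and 5 reversed. The reversed values were all from results that had not passed: Casp8 stability without wild-type replicate 1 (-0.243) or KO replicate 3 (-0.0452; range over left-out cultures -0.243 to 0.421), Apaf1 stability without wild-type replicate 3 (-0.0137) or KO replicate 1 (-0.0130), in a range up to 0.0435, and Bax nascent RNA without wild-type replicate 3 (0.0045, in a range down to -0.226). For pathway genes, Casp6 stability was 0.0156 with edgeR, 0.0473 with RLE and 0.0217 with upper-quartile factors, 0.281 without wild-type replicate 1 and 0.217 without KO replicate 3 (range over left-out cultures -0.301 to 0.281), and Hrk stability was -0.71 without KO replicate 3 and up to 1.32 without others. The relative ratio of Casp9 in wild-type cells was -0.0116 with 3 CPM in all libraries, and that of Casp2 in KO cells 0.171 without the filter, since the median gene shifts with the genes kept. The cause of the other reversals was not tested.

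Replicate numbers did not pair the libraries of the 2 genotypes measurably. With the number as a replicate block the nascent change of Casp9 was -0.294 (limma adjusted p = 0.0341) and the stability change of Bcl2l11 0.367 (adjusted p = 0.0492), both now past the threshold. With the culture as a block the latter was 0.361 (adjusted p = 0.0371), and no other call of a member was changed by either block. Nascent Casp9 also passed under DESeq2, RLE and upper-quartile factors. With RLE and with upper-quartile factors the median nascent change over all genes was -0.07, against -0.02 with TMM. Whether that shift made Casp9 pass was not tested. The median stability change over all genes was -0.09 with TMM, -0.03 with upper-quartile and -0.00 with RLE factors. With RLE and with upper-quartile factors Bcl2l1 stability missed the threshold and Bcl2l11 stability passed it. Whether the shift in the median bears on either was not tested. Precision is limited by 3 libraries per group and, for Casp8, Casp6, Hrk and Cflar (20 to 71 counts per library), by counts under 100.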

Other observations

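Of the 49 other apoptosis genes, 11 lay below the minimum level and were not tested, among them Fas, Fasl and Tnfsf10 of the death receptor route, the inflammatory caspases Casp1 and Casp4, and the anti-apoptotic Bcl2a1a, Bcl2a1b, Bcl2a1d and Bcl2l10 (named after their values were seen). By role, on the adjusted p alone, the 6 caspase adaptors were 4 higher and 2 lower in total RNA, and the 5 inhibitor of apoptosis genes 3 higher and 2 lower in both library types. Of all genes 63.9% passed that test in total and 56.3% in nascent RNA.

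Of the genes most like Casp2 across the libraries, Zfp367 held GCACTT 4 times in a 3′ UTR of 2296 bases and Zbtb41 5 times in 5475 bases, while 4933434E20Rik held none in 2736 bases. All were called higher in stability, Zfp367 by 1.72, Zbtb41 by 1.17, 4933434E20Rik by 1.02, Mir17hg by 1.97 and Mir15a by 1.75, beside 1.48 for Casp2. They were picked for their likeness to Casp2, so these changes are not separate evidence. Mir17hg and Mir15a are noncoding microRNA genes, whose primary transcripts are of the kind that Dgcr8 helps to cut, unlike an mRNA such as Casp2. Whether this bears on their likeness to Casp2 was not tested. Mir15a had only 10 to 57 counts per library.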
